A study of Mus musculus with 8 samples.

Results

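The genes described here are 7 transcripts by which astrocytes are commonly known and by which they clear, couple and buffer: *Slc1a2* and *Slc1a3* (glutamate transporters), *Glul* (glutamine synthetase), *Aqp4* (a water channel), *Gja1* and *Gjb6* (gap junction proteins) and *Aldh1l1* (a folate enzyme used as an astrocyte marker). They were taken by name, with earlier results of these data known, out of 46517 genes listed for bulk RNAseq and 24051 listed for snRNAseq. All 7 were found in both. Each of the assays, bulk RNAseq and snRNAseq, covered the hippocampi of 4 mice. Mutants, 2 per assay, were Wls fl/-;Gfap-Cre. Controls, also 2 per assay, were Wls fl/+;Gfap-Cre. The mice were 12 weeks old and male by their labels, and each library came from 1 mouse. Wls carries Wnt proteins to the cell surface. Both genotypes carry Cre driven by the *Gfap* promoter, which acts in neural progenitors as well as in astrocytes and removes the floxed copy there. The other copy is null in every cell of the mutant and wild type in the control.

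Astrocytes take up the glutamate that neurons release, mainly through the transporters GLT-1 (*Slc1a2*) and GLAST (*Slc1a3*), convert it to glutamine with glutamine synthetase and hand the glutamine back to neurons. Connexin 43 (*Gja1*) and connexin 30 (*Gjb6*) join neighbouring astrocytes into a network through which ions and small molecules spread, and aquaporin 4 (*Aqp4*), concentrated in the endfeet on blood vessels, carries water. *Aldh1l1* encodes a cytosolic enzyme that oxidises a formyl group on folate.

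The expected counts of a bulk library summed to 56002381 at the lowest and 79576196 at the highest. A snRNAseq library had 5304 to 10460 nuclei. The bulk libraries labelled replicate 2 of both genotypes had *Xist* at 230 and 518 CPM and *Ddx3y* at 0.352 and 0.343 CPM, against 1.44 and 1.05 CPM of *Xist* in the replicates labelled 1, which goes against the label male for replicate 2. Differences within each replicate number are therefore given below for the 7 genes in the bulk comparison. *Wls* itself stood at 2.91 and 2.08 CPM in astrocyte nuclei of mutant replicates 1 and 2 and at 49.9 and 39.6 CPM in those of the controls (log2 fold change -4.28, FDR 2.3e-04 in the edgeR quasi-likelihood fit, adjusted after Benjamini and Hochberg), lower in both mutants as their labels give it. Between 8 and 21 barcodes were shared by any pair of snRNAseq libraries. The nuclei labelled astrocytes numbered 167 and 939 in mutant replicates 1 and 2 and 491 and 570 in control replicates 1 and 2, which is 2167 of 29425 nuclei. A list of 10 other astrocyte markers summed in them to 10859 to 12770 UMIs per 1000000 UMIs of those nuclei (UPM), most of it *Gpc5*. The same list summed to 4434 to 5277 UPM in oligodendrocyte precursors (OPCs). In the astrocyte nuclei, 5 neuronal markers summed to 283 to 398 UPM, 5 microglial markers to 88.8 to 103 UPM and 4 endothelial markers to 5.73 to 16.3 UPM.

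Because the mutation blocks the secretion of Wnts, whose transcriptional output runs through TCF/LEF factors, the 250 bases upstream of the RefSeq start of each gene (GRCm38.p6) were searched for CTTTGA, a core of the TCF/LEF site, on both strands. A window was at hand for 6 of the 7 genes. The RefSeq starts used for *Slc1a2* and *Aldh1l1* lie inside the annotated genes, which begin at 102658659 and 90486427. The bases before those gene starts were not searched. Only that of *Slc1a2* held the motif, with 2 matches that begin 206 and 77 bases before the start, and 13.8% of 32851 promoters of the same length held at least 1. TTGGCA, a core of the site of the NFI factors of the astrocyte lineage, was in none of the 6 windows and in 12.3% of all promoters. A match of letters is a description and does not show binding. The upstream stretches of *Slc1a2*, the gene with the largest difference in bulk RNAseq, and of both connexin genes, whose levels across cell types were most alike, are printed below from 5′ to 3′ on the strand of the gene, with TCF/LEF matches on either strand in capitals. They are chr2:102706188-102706355 (plus strand, cut where an exon of a longer *Slc1a2* transcript begins, so that the match at 77 bases falls outside it), chr10:56377050-56377299 (plus strand) and chr14:57133612-57133861 (minus strand).
*Slc1a2*: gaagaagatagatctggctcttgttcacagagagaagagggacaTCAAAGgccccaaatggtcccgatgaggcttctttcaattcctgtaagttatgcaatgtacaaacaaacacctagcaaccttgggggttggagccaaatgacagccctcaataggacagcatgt
*Gja1*: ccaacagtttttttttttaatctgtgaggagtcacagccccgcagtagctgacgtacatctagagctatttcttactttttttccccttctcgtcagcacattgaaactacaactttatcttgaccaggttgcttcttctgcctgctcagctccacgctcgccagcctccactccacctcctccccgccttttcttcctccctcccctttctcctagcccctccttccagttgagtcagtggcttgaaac
*Gjb6*: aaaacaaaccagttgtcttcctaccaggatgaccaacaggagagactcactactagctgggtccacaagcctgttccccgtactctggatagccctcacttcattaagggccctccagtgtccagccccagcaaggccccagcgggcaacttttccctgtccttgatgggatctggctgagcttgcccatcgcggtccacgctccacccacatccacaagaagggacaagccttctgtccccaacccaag

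The 7 genes lie on 7 chromosomes of mm10 and none is a neighbour of another. *Slc1a2* is on chromosome 2 (102658659 to 102790784, plus strand), *Slc1a3* on chromosome 15 (8634124 to 8710764, minus strand), *Glul* on chromosome 1 (153899944 to 153909723, plus strand), *Aqp4* on chromosome 18 (15389496 to 15410982, minus strand), *Gja1* on chromosome 10 (56377330 to 56402513, plus strand), *Gjb6* on chromosome 14 (57123303 to 57133611, minus strand) and *Aldh1l1* on chromosome 6 (90486427 to 90600203, plus strand). Antisense genes are annotated across *Slc1a2* (*Gm13872*), *Aldh1l1* (*Gm15756*) and *Aqp4*, and *Teddm2* overlaps *Glul* on the other strand. The kit used for bulk RNAseq keeps the strand of each read, but whether strand entered the counting is not given in the sources used here.

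Across the deposited cell types, astrocyte nuclei held the highest level of 5 of the 7 genes, while *Slc1a3* was highest in microglia and *Gjb6* in a cluster labelled inhibitory neurons 14. Levels are in UPM over all nuclei of a type in a sample. The files give 21 types, of which 18 had at least 10 nuclei in each of the 4 samples and were compared. UMIs count molecules without regard to transcript length, and pre-mRNA of long genes yields more of them, so levels are compared here between types for 1 gene and not between genes.

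**Figure D1:**
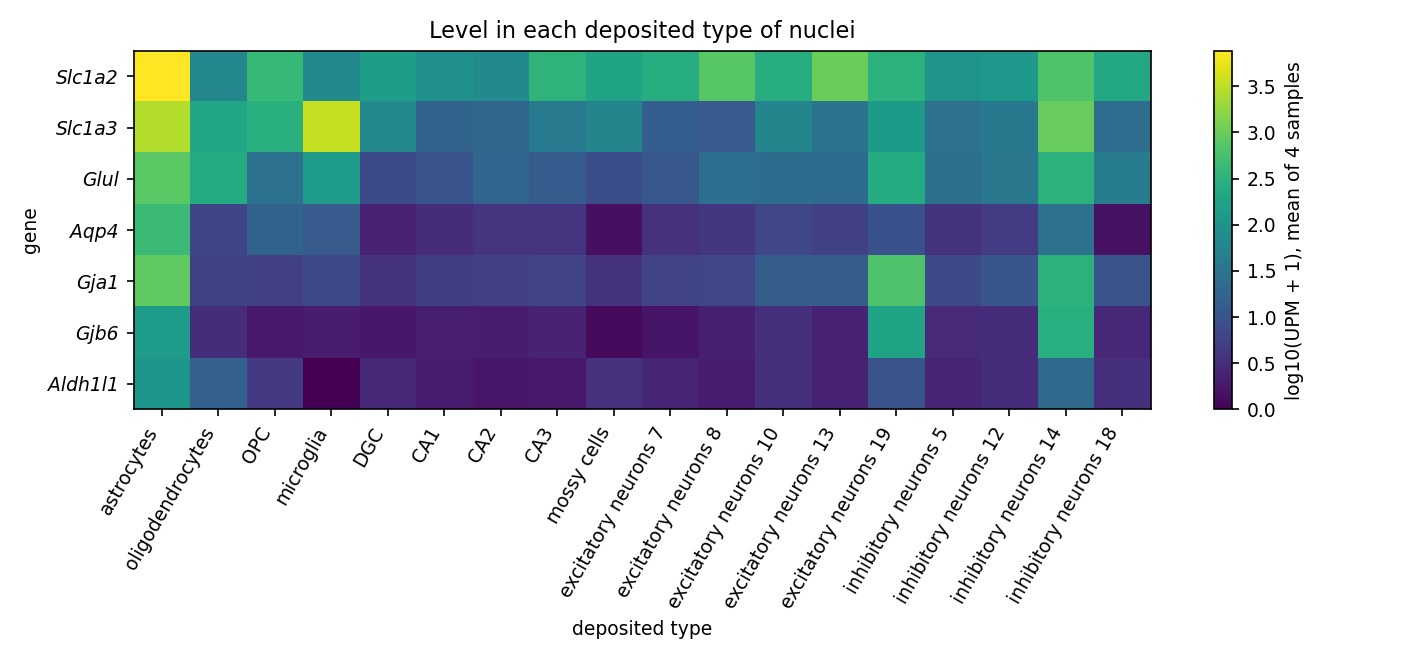
Mean level of the 7 genes (rows) in the 18 compared types of nuclei (columns), as log10(UPM + 1) over the 4 samples, with colour as the scale. Astrocytes are high for all 7 genes, *Slc1a3* is brightest in microglia, and both connexin genes are also high in excitatory neurons 19 and inhibitory neurons 14.

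*Slc1a2* encodes the transporter that takes up most synaptic glutamate in the adult forebrain. In astrocyte nuclei it reached 6977 and 7352 UPM in mutant replicates 1 and 2 and 8157 and 8072 UPM in control replicates 1 and 2. The next type, excitatory neurons 13, had 951 and 1071 UPM in the mutants and 957 and 1065 UPM in the controls, so that the mean in astrocytes was 7.56-fold higher and the ranges did not meet. Excitatory neurons 8 followed with 692 to 819 UPM, a range that overlapped that of inhibitory neurons 14 (367 to 835 UPM) but not that of excitatory neurons 13. CA3 pyramidal cells held 294 to 386 UPM and CA1 pyramidal cells 73.0 to 102 UPM, without overlap, and DGCs held 138 to 162 UPM. Microglia were at 46.4 to 74.9 UPM.

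The proportion of *Slc1a2* to *Slc1a3* differed among neuron types. In astrocyte nuclei there were 2.67 to 3.03 UMIs of *Slc1a2* for 1 UMI of *Slc1a3*, whereas the ratio was 21.8 to 61.8 in excitatory neurons 13, 38.4 to 273 in excitatory neurons 8 and 6.65 to 10.2 in CA3. It was also above that of astrocytes in excitatory neurons 7 (14.83 to 37.25), CA1 (4.418 to 9.954) and excitatory neurons 10 (3.159 to 7.381). Some other neuron types lay around or just below the ratio of astrocytes. Inhibitory neurons 12 had 2.2 to 4.35, inhibitory neurons 5 had 2.64 to 5.29 and DGCs had 2.03 to 2.45. After each nucleus was thinned to 1000 UMIs, the share of nuclei with a *Slc1a2* UMI was 98.8% to 100% in astrocytes, 51.1% to 68.5% in excitatory neurons 13, 40.7% to 48.8% in excitatory neurons 8, 22.4% to 30.1% in CA3, 11.9% to 20.0% in DGCs, 6.30% to 9.12% in CA1 and 0% to 6.33% in microglia. In microglia of mutant replicate 1 no nucleus of 13 had one, which the exact binomial interval allows up to a share of 24.7%. The shares in excitatory neurons 13, excitatory neurons 8 and CA3 lay above those of microglia in every sample at equal depth. Without thinning, *Slc1a2* was seen in 97.0% to 100% of excitatory neurons 13, whose median depth was 4200 to 10906 UMIs, and in 7.69% to 13.2% of microglia, at 1632 to 2434 UMIs.

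*Slc1a3* encodes GLAST, which in development marks radial glia and in the adult serves astrocytes beside GLT-1. Microglia, the immune cells of the brain, held 2415 and 4212 UPM of it in mutant replicates 1 and 2 and 3636 and 3852 UPM in the controls, and astrocytes held 2307 and 2750 UPM in the mutants and 2892 and 2996 UPM in the controls. The means stood in a ratio of 1.29, and the ranges of both types overlapped through mutant replicate 1, where there were 13 microglia. By the share of nuclei with a UMI at 1000 UMIs, both types were alike as well, with 87.4% to 92.3% in astrocytes and 84.6% to 90.5% in microglia, and astrocytes then ranked first. The microglial nuclei were not astrocytes by their other transcripts. They held 46.4 to 153 UPM of the 10 astrocyte markers together and 5806 to 6540 UPM of the 5 microglial markers, and their ratio of *Slc1a2* to *Slc1a3* UMIs was 0.0166 to 0.0197. All other types were lower, beginning with inhibitory neurons 14 (719 to 1172 UPM), OPCs (239 to 310 UPM) and oligodendrocytes (175 to 208 UPM), each apart from its neighbours in the order. Excitatory neurons 8 and 13, rich in *Slc1a2*, held 2.54 to 21.3 and 15.5 to 48.9 UPM of *Slc1a3*.

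*Glul*, whose enzyme makes glutamine from glutamate and ammonia, was also found in oligodendrocytes and microglia. Astrocytes held 685 and 665 UPM in mutant replicates 1 and 2 and 921 and 790 UPM in the controls, 2.48-fold above the next type. Inhibitory neurons 14 (258 to 395 UPM), oligodendrocytes (165 to 294 UPM) and excitatory neurons 19 (188 to 294 UPM) followed, and these 3 neighbours overlapped in the order. Microglia held 46.4 to 182 UPM, whereas DGCs held 2.42 to 9.58 UPM.

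*Aqp4* had a larger step from astrocytes to the next type than the other 4 genes highest in astrocytes. Astrocytes held 435 and 398 UPM in mutant replicates 1 and 2 and 492 and 424 UPM in the controls, 15.7-fold above inhibitory neurons 14 (19.3 to 42.6 UPM), and no range of another compared type reached that of astrocytes. At 1000 UMIs, 25.3% to 29.9% of astrocyte nuclei had an *Aqp4* UMI and 0% to 0.214% of DGCs.

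The connexin genes were high in the same 3 types. *Gja1* reached 805 and 626 UPM in astrocytes of mutant replicates 1 and 2 and 1218 and 781 UPM in those of the controls, and *Gjb6* reached 88.8 and 119 UPM in the mutants and 171 and 162 UPM in the controls. In excitatory neurons 19, *Gja1* stood at 799, 227, 871 and 585 UPM in mutant replicates 1 and 2 and control replicates 1 and 2, which overlaps the range of astrocytes. In inhibitory neurons 14 *Gjb6* stood at 213, 225, 320 and 323 UPM in the same order, above every value in astrocytes, and in excitatory neurons 19 it was at 109 to 265 UPM. Below these 3 types the level of *Gja1* dropped 24.3-fold and that of *Gjb6* 55.4-fold to the next. Pearson's r between both genes over the 18 types, on log2(UPM + 1), was 0.97, the highest among the 21 pairs of the 7 genes, which ranged down to 0.30 for *Slc1a2* and *Slc1a3*. These types share libraries, so r is given as a description.

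Neither of these clusters carried the marker levels of its label. Inhibitory neurons 14, with 64 and 250 nuclei in the mutants and 82 and 123 in the controls, held 6.45 to 31.9 UPM of *Gad1*, the GABA-synthesising enzyme, where astrocytes held 14.3 to 23.2 UPM. It held 2667 to 4126 UPM of 6 meningeal markers, led by *Ranbp3l* (1804 to 2727 UPM), and 1373 to 2278 UPM of 4 endothelial markers, with *Flt1* at 661 to 993 UPM. Its 10 astrocyte markers summed to 361 to 1022 UPM, 5 neuronal markers to 600 to 1019 UPM. The 7 genes were not spread alike within it. In mutant replicate 2, 605 UMIs of *Slc1a2* came from 80 of 250 nuclei, while 192 UMIs of *Gjb6* came from 113. Excitatory neurons 19, with 19 to 64 nuclei per sample, held 0 to 98.9 UPM of *Slc17a7*, the vesicular glutamate transporter of excitatory neurons, 603 to 1153 UPM of the meningeal markers and 1053 to 2229 UPM of the astrocyte markers, most of it *Gpc5*. It had 0 UMIs of *Flt1*. Both clusters are called here by their deposited names only.

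*Aldh1l1* reached 143 and 117 UPM in astrocytes of mutant replicates 1 and 2 and 87.6 and 104 UPM in those of the controls, 5.35-fold above inhibitory neurons 14 (9.98 to 38.7 UPM). Oligodendrocytes held 8.24 to 28.7 UPM, and microglia had 0 UMIs in all 4 samples, 0 of 332 nuclei in the largest of them. At 1000 UMIs, 8.15% to 12.6% of astrocyte nuclei had an *Aldh1l1* UMI.

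The EC cluster, left out of the comparison because it had 4, 11, 0 and 9 nuclei in mutant replicates 1 and 2 and control replicates 1 and 2, held endothelial markers at 2895 to 3807 UPM and astrocyte markers at 1476 to 4963 UPM. *Slc1a2* was at 1308 to 1735 UPM in it, *Glul* at 453 to 727 UPM and *Aqp4* at 201 to 300 UPM.

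Counted by molecules rather than by level, astrocytes gave the greater part of the UMIs of *Aqp4*, *Gja1*, *Aldh1l1* and *Slc1a3* in all 4 samples. They gave more of those of *Slc1a2* than neurons in 3 of the 4. Astrocyte nuclei gave 65.2% to 85.5% of *Aqp4* UMIs, 56.4% to 78.6% of *Gja1* UMIs, 53.2% to 71.0% of *Aldh1l1* UMIs and 50.4% to 57.1% of *Slc1a3* UMIs. Of *Slc1a2* UMIs they gave 27.8% and 53.6% in mutant replicates 1 and 2 and 56.5% and 59.9% in the controls, and the neuron types other than the pair of clusters just described gave 69.6% and 41.4% in the mutants and 40.6% and 36.7% in the controls. Mutant replicate 1, with the fewest astrocyte nuclei, was the sample in which neurons gave more. Of *Slc1a3* UMIs, microglia gave 3.34% to 22.7%. Inhibitory neurons 14 and excitatory neurons 19 together gave 26.1% to 48.3% of *Gjb6* UMIs, and astrocytes gave 34.8% to 57.2%. Of *Glul* UMIs, astrocytes gave 38.1% to 58.3%. In mutant replicate 1 the other neuron types gave more *Glul* UMIs than astrocytes (47.45% against 38.1%).

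**Figure D2:**
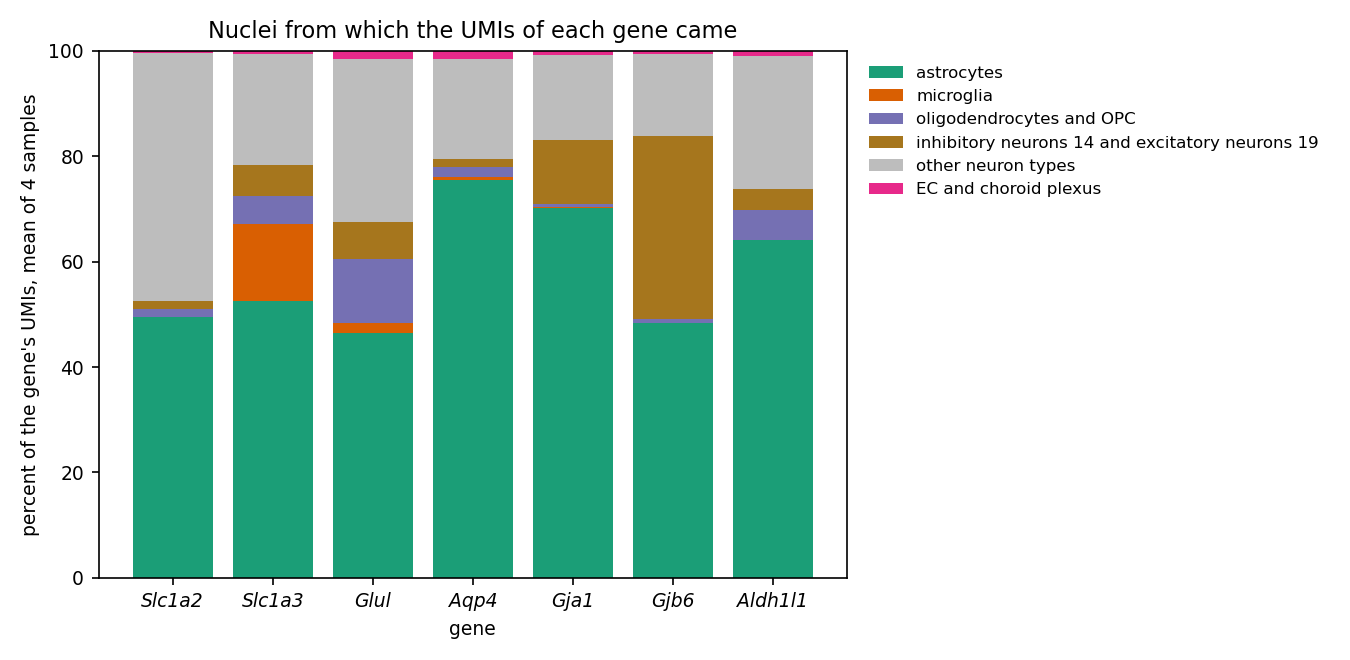
Stacked bars give the percent of the UMIs of each gene (x axis) that came from 6 groups of deposited types, as the mean of the 4 samples. Astrocytes gave 75.6% of *Aqp4* UMIs and 49.4% of *Slc1a2* UMIs, for which other neuron types gave 47.1%, a mean that mutant replicate 1 brings close to that of astrocytes.

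Within astrocyte nuclei, detection of 1 gene was compared with detection of another at like depth. Odds ratios were computed over 5 strata of UMIs in each sample for the pairs that had at least 5 nuclei in each of the 4 outcomes, which left 10 of 21 pairs, since *Slc1a2* and *Slc1a3* were seen in nearly every nucleus. *Aqp4* with *Gja1* had odds ratios of 1.18, 1.27, 1.71 and 1.31 in mutant replicates 1 and 2 and control replicates 1 and 2, and *Aqp4* with *Gjb6* had 2.91, 1.27, 1.12 and 1.31. These 2 pairs were above 1 in all samples, and the other 8 lay on both sides of 1. *Glul* with *Gja1* had the highest median (1.62), at 0.995, 1.46, 1.79 and 3.003 in the same order. The median of the 10 pairs was 1.26. *Gja1* with *Gjb6*, partners in the same junctions, had 0.932, 1.67, 1.10 and 1.45.

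The genes whose mean log2(UPM + 1) over the 18 types was most like that of each member were sought among 12204 genes that reached 20 UPM in at least 1 type. For *Slc1a2* the first was *Gm13872* (r = 0.93), the antisense gene annotated across it. For *Aqp4* the first was *Gfap* (0.96), the intermediate filament gene of astrocytes whose promoter drives Cre here, followed by *Mfge8* (0.94) and *Adora2b* (0.94). *Gja1* was followed by *Gm5089* (0.98), *Fzd2* (0.98), a Wnt receptor, and *Gli3* (0.97), a transcription factor of the hedgehog pathway, and *Gjb6* by *Fzd2* (0.99), *Ephb4* (0.99) and *Msx1* (0.99). For *Slc1a3* these were *Crlf3*, *Cyp4f13* and *Rest* (0.93 to 0.94), for *Glul* *Rgs3*, *Nde1* and *Zfp438* (0.94 to 0.95), and for *Aldh1l1* *Gm10561*, *Slc27a1* and *Paqr6* (0.93 to 0.94). *Gdpd2* (0.89) and *Rgs20* (0.85) were next for *Slc1a2*.

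In whole hippocampus, per length of transcript, *Glul* was the most abundant of the 7 and *Aldh1l1* the least. The TPM values of the authors, which divide by transcript length, gave *Glul* 1053 and 1078, *Slc1a2* 509 and 548, *Slc1a3* 268 and 262, *Gja1* 163 and 155, *Gjb6* 59.6 and 71.0, *Aqp4* 57.1 and 59.6 and *Aldh1l1* 27.0 and 28.0 in control replicates 1 and 2. Neighbours in this order did not overlap in the controls, although the lower *Gjb6* value and the higher *Aqp4* value nearly met. In the mutants the TPM of *Slc1a2* was 371 and 345 and that of *Slc1a3* 215 and 215, so that 1.73 and 1.61 transcripts of *Slc1a2* stood against 1 of *Slc1a3*, compared with 1.90 and 2.09 in the controls. *Gja1* stood at 2.92 and 2.79 transcripts for 1 of *Gjb6* in the mutants and at 2.74 and 2.18 in the controls.

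The comparison of genotypes in bulk RNAseq asks whether the level of these genes in the whole hippocampus differed with the loss of Wls. None of the 7 was past the thresholds of the study (fold change above 3 and FDR below 0.05), which 0.218% of 20687 tested genes passed, and none had an FDR below 0.05 at any fold, as 1.21% of genes did. At an unadjusted p below 0.05 there were 4 of the 7 and 3889 of the 20687 genes, and DESeq2 also called none past the fold. *Slc1a2* was lowest in the mutants relative to control, *Slc1a3* and *Gjb6* lay below the controls too, and *Glul* and *Aldh1l1* lay above, *Glul* in CPM but not in TPM. Both mutants lay below both controls for 3 of the 7 genes and for 25.4% of all genes, and above them for 2 of the 7 and for 25.8% of all genes. In whole tissue, fewer astrocytes, less RNA in each and changes in other cells that hold these transcripts cannot be told apart.

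*Slc1a2* was at 2168 and 1928 CPM in mutant replicates 1 and 2 and at 2755 and 2947 CPM in control replicates 1 and 2. Both mutants were below both controls. The log2 fold change was -0.48 ± 0.0787 (SE), or 71.8% of the control level, with an FDR of 0.0726 in the edgeR quasi-likelihood fit, adjusted after Benjamini and Hochberg, and the differences within replicate numbers 1 and 2 were -0.35 and -0.61. The FDR was below 0.05 in 5 of 10 alternatives, among them DESeq2 (2.2e-07), limma on the authors' matrix (0.0495) and the fit without mutant replicate 1 (0.0023), and it reached 0.504 without control replicate 2. The log2 fold change lay between -0.56 and -0.40 in all of them.

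*Slc1a3* was at 443 and 419 CPM in the mutants and at 502 and 493 CPM in the controls, without overlap, and its log2 fold change was -0.21 ± 0.0554 (SE, FDR 0.152). The differences within replicate numbers were -0.18 and -0.23. DESeq2 gave an FDR of 0.0135.

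*Glul* was at 1332 and 1242 CPM in the mutants and at 1161 and 1233 CPM in the controls. The closest mutant and control differed by little, and the log2 fold change was 0.10 ± 0.0650 (SE, FDR 0.458), with differences of 0.20 and 0.010 within replicate numbers 1 and 2. In TPM *Glul* overlapped, at 1039 and 1090 in the mutants and 1053 and 1078 in the controls. *Aldh1l1* was at 42.6 and 48.4 CPM in the mutants and at 38.5 and 38.5 CPM in the controls, with a log2 fold change of 0.24 ± 0.0792 (SE, FDR 0.205). Its differences within replicate numbers were 0.14 and 0.33, and its FDR was 0.0247 without mutant replicate 1.

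*Gja1* was at 246 and 234 CPM in the mutants and at 237 and 223 CPM in the controls, and *Aqp4* was at 163 and 140 CPM in the mutants and at 136 and 142 CPM in the controls. Both overlapped, with log2 fold changes of 0.064 ± 0.0588 (SE) and 0.12 ± 0.0832 (SE). Within replicate numbers 1 and 2 *Gja1* differed by 0.055 and 0.073, and *Aqp4* by 0.25 and -0.019. *Gjb6* was at 45.7 and 48.5 CPM in the mutants and at 51.2 and 57.0 CPM in the controls, with a log2 fold change of -0.20 ± 0.0738 (SE, FDR 0.242) and differences of -0.16 and -0.23 within replicate numbers.

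**Figure D3:**
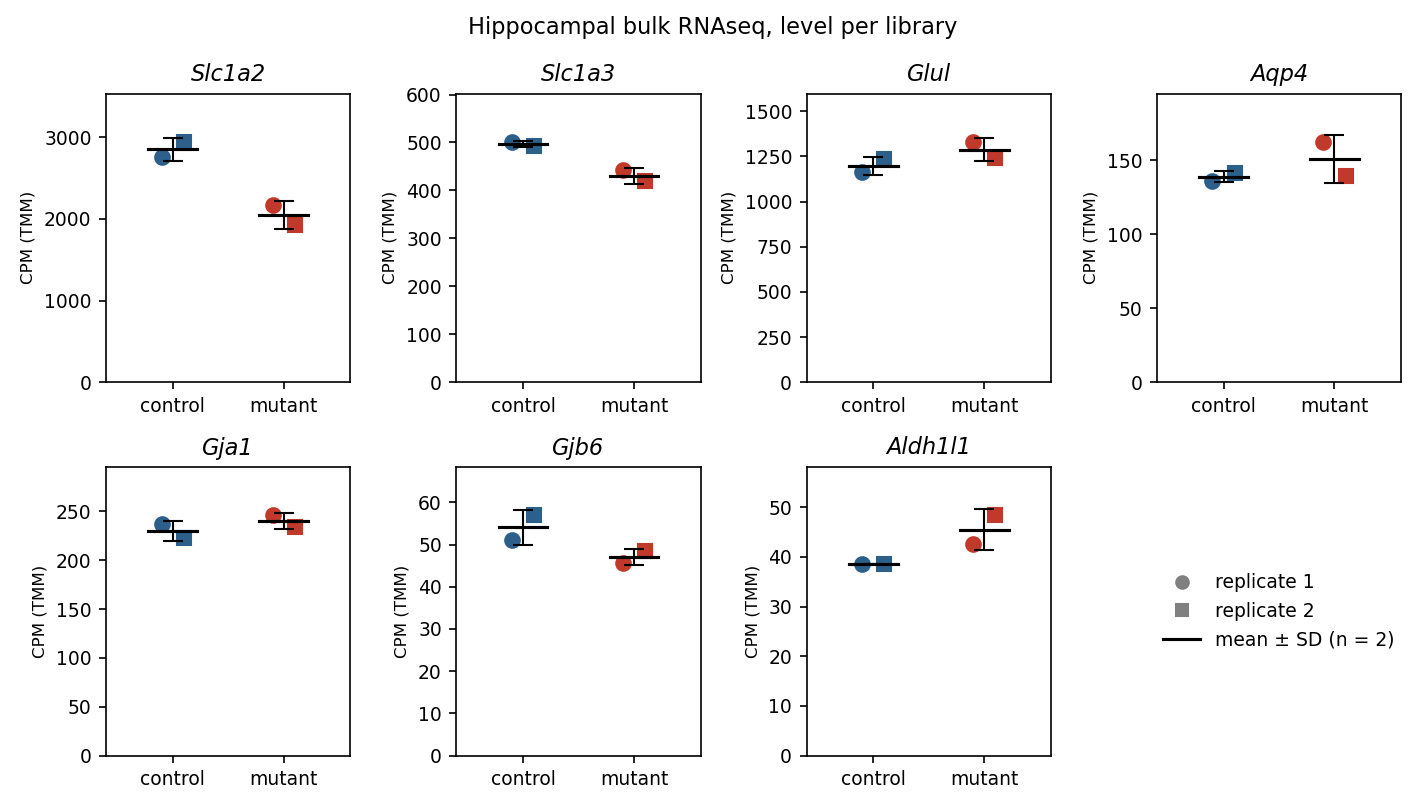
Level of each gene in the 4 bulk RNAseq libraries, in TMM-scaled CPM on axes that start at 0, with circles for replicate 1, squares for replicate 2 and lines for the mean with SD (n = 2). The mutant libraries lie below both controls for *Slc1a2* (2168 and 1928 against 2755 and 2947 CPM), *Slc1a3* and *Gjb6*.

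Markers of other cell types differed in the same bulk libraries. All 5 DGC markers were lower in both mutants than in both controls and 4 passed the thresholds, with a median log2 fold change of -2.73. All 7 choroid plexus markers were higher in both mutants, with a median of 3.93 and none past the thresholds, and *Ttr* was at 635 and 4963 CPM in the mutants and 84.8 and 31.8 CPM in the controls. All 5 ependymal markers were higher in both mutants, with a median of 1.13 and 1 past the thresholds, and 6 meningeal markers had a median of -0.40, with 1 called lower. The 10 other astrocyte markers had a median log2 fold change of 0.12 and ranged from -0.059 to 0.47, and 5 oligodendrocyte markers ranged from 0.32 to 0.37. The part of these cell types in the differences of the 7 genes was not tested. DGC nuclei held 138 to 162 UPM of *Slc1a2*, as given above.

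In astrocyte nuclei, where the cell type is held, none of the 7 genes passed the thresholds used for nuclei either (fold change above 2 and FDR below 0.05), which 0.383% of 11482 tested genes passed, or an FDR below 0.05 at any fold (0.427% of genes). At an unadjusted p below 0.05 there were 2, *Gjb6* and *Gja1*, and 1212 of the 11482 genes, and DESeq2 called none. Both mutants lay below both controls for 3 of the 7 genes and for 21.3% of all genes, and above them for 1 of the 7 and for 20.1% of all. The values that follow are CPM after TMM scaling of summed astrocyte UMIs, and so differ slightly from UPM.

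*Slc1a2* was at 7088 and 7680 CPM in the mutants and at 7987 and 8229 CPM in the controls. The mutants lay below the controls, by less than in bulk RNAseq, with a log2 fold change of -0.13 ± 0.125 (SE, FDR 0.779). The difference between both assays was not tested. *Slc1a3* was at 2343 and 2873 CPM in the mutants and at 2832 and 3054 CPM in the controls, which overlapped, unlike the UPM given above, with a log2 fold change of -0.17 ± 0.147 (SE, FDR 0.750). *Glul* was at 696 and 695 CPM in the mutants and at 902 and 806 CPM in the controls, below both, with a log2 fold change of -0.29 ± 0.160 (SE, FDR 0.541).

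*Gja1* was at 818 and 654 CPM in the mutants and at 1192 and 796 CPM in the controls. Mutant replicate 1 and control replicate 2 overlapped, and the log2 fold change was -0.44 ± 0.192 (SE, FDR 0.407), which became -0.14 without control replicate 1. *Gjb6* was at 90.2 and 124 CPM in the mutants and at 167 and 165 CPM in the controls. Here both mutants were below both controls, with a log2 fold change of -0.56 ± 0.205 (SE, FDR 0.288) on 31, 298, 191 and 334 UMIs in mutant replicates 1 and 2 and control replicates 1 and 2. *Aqp4* was at 442 and 416 CPM in the mutants and at 481 and 432 CPM in the controls, which overlapped (log2 fold change -0.094 ± 0.171, SE). Its direction turned to 0.23 with nuclei thinned to 1000 UMIs and to 0.039 without the deepest nuclei. *Aldh1l1* was at 146 and 122 CPM in the mutants and at 85.8 and 106 CPM in the controls, above both, with a log2 fold change of 0.43 ± 0.213 (SE, FDR 0.496).

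**Figure D4:**
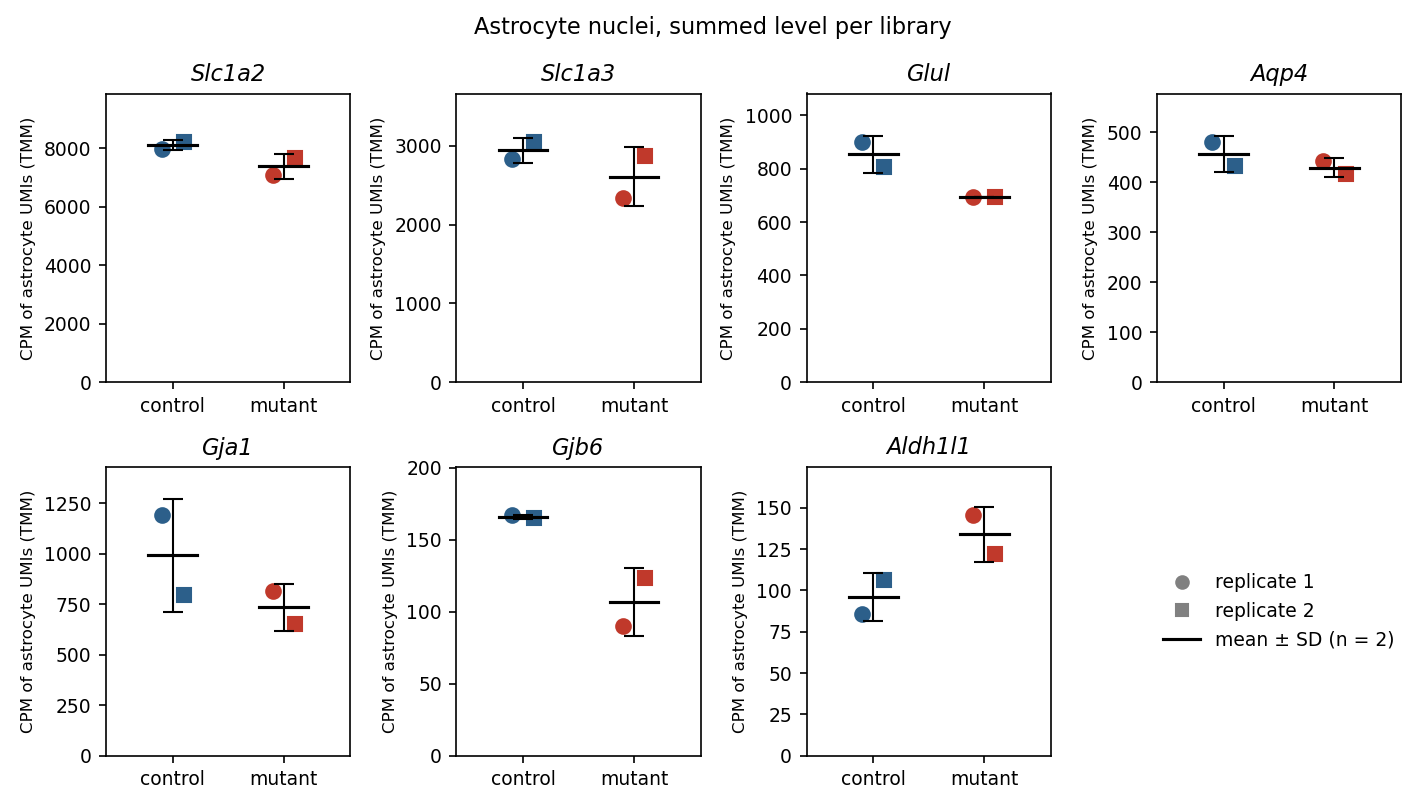
Level of each gene in astrocyte nuclei of the 4 snRNAseq libraries, in TMM-scaled CPM on axes that start at 0, with circles for replicate 1, squares for replicate 2 and lines for the mean with SD (n = 2). *Aldh1l1* is above the controls in both mutants (146 and 122 against 85.8 and 106 CPM) and *Gjb6* below.

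**Figure D5:**
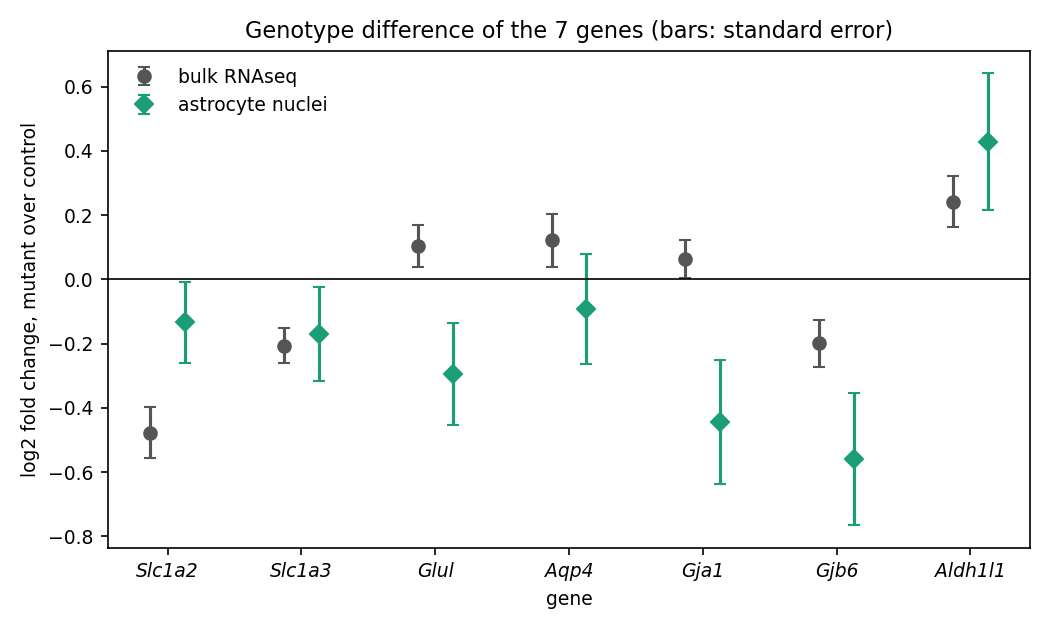
Log2 fold change of mutant over control for each gene in bulk RNAseq (circles) and in astrocyte nuclei (diamonds), with bars for the standard error of the fit. *Slc1a2* is at -0.48 in bulk and -0.13 in astrocytes, and *Glul*, *Aqp4* and *Gja1* are on opposite sides of 0 in the 2 assays, but the TPM ratio of mutant to control in bulk was 0.999 for *Glul* and 0.986 for *Gja1*, and *Aqp4* in astrocytes was at 0.23 after thinning and 0.039 without the deepest nuclei.

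Shares of astrocyte nuclei with a UMI showed the same order of samples at equal depth for *Gjb6* and *Aldh1l1*. At 1000 UMIs the share for *Gjb6* was 10.2% (exact 95% binomial interval 6.04% to 15.8%) and 11.0% (9.04% to 13.1%) in mutant replicates 1 and 2 and 15.5% (12.4% to 18.99%) and 14.6% (11.8% to 17.7%) in control replicates 1 and 2, where the intervals of single libraries overlapped in part. For *Aldh1l1* it was 12.6% and 10.7% in the mutants and 8.15% and 8.77% in the controls. For *Gja1* it was 50.3% and 42.8% in the mutants and 68.0% and 50.5% in the controls, so that control replicate 1 stood apart. Before thinning, the share for *Gjb6* was 17.4% and 26.8% in the mutants and 30.1% and 41.9% in the controls, at median depths of 1964, 2501, 1986 and 3440 UMIs. Intervals cover counting error only. No compared nucleus was shallower than 1000 UMIs.

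Astrocytes took 3.15% and 8.98% of nuclei in mutant replicates 1 and 2 and 7.59% and 7.93% in control replicates 1 and 2. Mutant replicate 1 was low and mutant replicate 2 above both controls. As a share of nuclei other than DGCs, astrocytes took 3.20% and 9.39% in the mutants and 11.9% and 10.99% in the controls, so that both mutants were then below both controls (log2 fold change -0.86, FDR 0.816). The log2 fold change was -0.35 ± 0.687 (SE) with an FDR of 0.811 over 21 types in the edgeR quasi-likelihood fit, adjusted after Benjamini and Hochberg, and it was 0.21 without mutant replicate 1. DGCs took 1.70% and 4.43% of nuclei in the mutants and 36.1% and 27.9% in the controls, and shares of a sample sum to the same total.

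In the other 17 types the members gave 67 tests and none passed the thresholds, which 0.177% of 170731 tests over all genes passed. An unadjusted p below 0.05 was reached by 839 of 9523 genes in inhibitory neurons 12 and by 904 of 10365 in excitatory neurons 10. In DGCs it was reached by 2404 of 15003 genes and in CA3 by 1876 of 15040. In mossy cells it was reached by 781 of 7289 genes and in inhibitory neurons 18 by 248 of 4268. The share over all genes in the 17 types together was not computed. Of the 67 member tests, 9 reached an unadjusted p below 0.05, all of them in the types just named. Among them, *Slc1a2* in inhibitory neurons 12 had a log2 fold change of -1.05 ± 0.335 (SE, FDR 0.330) on 21, 200, 55 and 283 UMIs in mutant replicates 1 and 2 and control replicates 1 and 2, and overlapped between genotypes. *Slc1a3* in excitatory neurons 10 had -0.81 ± 0.256 (SE, FDR 0.378) on 71, 139, 41 and 44 UMIs, and *Aqp4* in DGCs -2.31 ± 0.803 (SE, FDR 0.206) on 0, 2, 28 and 46 UMIs. The level of *Aqp4* in DGCs was only 0 to 2.83 UPM. In microglia *Slc1a3* overlapped between genotypes, with a log2 fold change of -0.19 (FDR 1.00).

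The genes that work beside the 7 were taken from 5 lists of 46 genes, of which all were tested in bulk RNAseq and 32 in astrocyte nuclei. None passed the thresholds in either. Their median log2 fold change was 0.083 in bulk RNAseq and 0.056 in astrocyte nuclei, where the medians of all tested genes were 0.011 and -0.0011. At any fold, 2 of the 46 had an FDR below 0.05 in bulk RNAseq, as 1.21% of all tested genes did, and both were lower in the mutants. *Slc7a11*, which exchanges cystine for glutamate, was at 27.6 and 24.5 CPM in the mutants and 42.7 and 50.8 CPM in the controls (log2 fold change -0.85, FDR 0.0461). *Dtna*, whose dystrobrevin is part of the complex that anchors aquaporin 4, was at 108 and 97.5 CPM in the mutants and 144 and 157 CPM in the controls (-0.56, FDR 0.0465). In astrocyte nuclei *Slc7a11* overlapped between genotypes (log2 fold change -0.24) and *Dtna* lay above both controls in both mutants (0.17), neither past the test. The highest level of *Slc7a11* in control nuclei was not in astrocytes (419 UPM) but in inhibitory neurons 14 (2050 UPM). *Dtna* was at 1392 UPM in control astrocytes and at 316 UPM in control DGCs, the next type. The part of the fewer DGCs in its bulk difference was not tested.

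By list, 6 genes of amino acid and GABA uptake had medians of 0.35 in bulk RNAseq and 0.097 in astrocyte nuclei, and 5 of the 6 lay above the controls in both bulk mutants, as 25.8% of all genes did. Among these, *Slc6a11*, a GABA transporter of astrocytes, was at 173 and 151 CPM in bulk mutants and 126 and 113 CPM in bulk controls (log2 fold change 0.44, FDR 0.103), and at 541 and 596 CPM in astrocyte nuclei of the mutants and 362 and 368 CPM in those of the controls (0.65, FDR 0.109). *Slc6a9*, a glycine transporter, was at 49.5 and 53.2 CPM in astrocyte nuclei of the mutants and 14.01 and 27.7 CPM in those of the controls (1.24, FDR 0.0835). The glutamine cycle list (9 genes) had medians of 0.015 and 0.11, the list of water, potassium and pH partners (13 genes) 0.11 and -0.029, that of other connexins, pannexins and partners (10 genes, 1 tested in astrocytes) 0.077 and -0.48, and that of folate enzymes (8 genes, 5 tested in astrocytes) 0.046 and -0.048.

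Of the same 46 genes, the level in control astrocyte nuclei relative to the next type was highest for *Slc25a18*, a mitochondrial glutamate carrier (14.4-fold), *Mlc1*, a membrane protein of astrocyte endfeet (11.4-fold), *Slc7a10*, an amino acid transporter (10.7-fold), and *Slc6a11* (7.56-fold). *Mlc1* was at 151 and 198 CPM in astrocyte nuclei of the mutants and 292 and 249 CPM in those of the controls (log2 fold change -0.58, FDR 0.239), and *Slc7a10* at 326 and 315 CPM against 458 and 400 CPM (-0.42, FDR 0.382), while *Slc25a18* was at 163 and 195 CPM against 130 and 163 CPM (0.32, FDR 0.624). *Tjp1*, whose protein binds connexin 43, was at 579 and 550 CPM against 850 and 721 CPM (-0.48, FDR 0.254). Among the 10 other astrocyte markers 1 passed the thresholds in astrocyte nuclei, *Cldn10*, a claudin, at 268 and 207 CPM in the mutants and 500 and 459 CPM in the controls (-1.05, FDR 0.0163). The median of these 10 markers was -0.23.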

How the data were processed

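Each assay compared 2 mutant with 2 control mice. The authors aligned bulk reads to mm10 with RSEM 1.3.0 and Bowtie2 2.2.9 (submitters' processing notes) and, per gene and library, gave an expected count and a TPM value in the deposited files, TPM being relative to transcript length and to all transcripts. They also deposited a matrix of signal, the expected counts scaled by a size factor. Nuclei were processed by the authors with Cell Ranger 3.1.0, who deposited a UMI count per gene and nucleus, without normalization, with a cell type for each nucleus. Cell calling, clustering and types are the authors'. The labels inhibitory neurons 14 and the like are the deposited ones. No doublet caller was run here, and an alternative left out the deepest 5% of nuclei.

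Expected counts were rounded and compared with edgeR 4.0.16 (quasi-likelihood test, filterByExpr, TMM, Benjamini-Hochberg adjustment over all tested genes, R 4.3.3). EBSeq, which the authors used, was not run. Summed UMIs per mouse and type were compared likewise where each sample had 10 or more nuclei of the type. The SE of a fold change was taken as its absolute log2 value divided by the square root of the F statistic. An exact two-sided permutation test of 2 against 2 cannot go below p = 0.333. No label gives same-numbered replicates a shared litter, batch or day, although replicate 2 of both genotypes in bulk RNAseq shared high *Xist*. Thinning used a fixed seed. On simulated data with 200 changed genes, 98.5% were recovered in bulk RNAseq at 6-fold over 20304 genes with 20 false calls, and 95.5% in astrocyte nuclei at 4-fold over 11094 genes with 12 false calls. Alternatives were DESeq2 1.42.0, limma 3.58.1 on log2(signal + 1), RLE or library size scaling, no filter, a replicate block, thinned nuclei and each library left out. Descriptive values came from Python 3.11.15 (pandas 2.3.3, numpy 2.4.6, scipy 1.17.1).

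The 7 genes, the lists and the tests were chosen with earlier results of these data known. Named genes are the 7, *Wls*, *Xist*, *Ddx3y*, list genes called in either fit, up to 4 list genes with the highest ratio of astrocytes to the next type, and for each member the 3 genes most like it over the types. *Slc7a11*, *Dtna*, *Slc6a9*, *Tjp1*, *Ttr* and single genes that mark clusters were added after their values were seen, and called marker genes of other cell types are given as counts.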

Additional observations from a re-analysis of the deposited data

Results flagged for a closer look

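With 2 samples per genotype, no test for a single deviating sample was made. For *Slc1a2*, 5 differences of genotype among the 17 other types were opposite to that in astrocyte nuclei. Both mutants lay above both controls in these types, where the mutants lay below in astrocytes (log2 fold change -0.13). They were in OPCs (0.11), DGCs (0.15), CA1 (0.29), excitatory neurons 7 (0.35) and inhibitory neurons 18 (0.89). None of the 5 passed the thresholds, and the difference between the types was not tested. In CA3 both mutants lay below both controls, as in astrocytes (-0.29). Both mutants lay above both controls for 20.1% of all genes in astrocyte nuclei, and the share in the other types was not computed.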

How the results depend on the processing

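Of 147 recomputed log2 fold changes of the 7 genes in both assays, 145 kept their direction and their call. The exceptions were *Aqp4* in astrocyte nuclei, which was 0.23 after nuclei were thinned to a common depth and 0.039 without the deepest nuclei, against -0.094, and the cause was not tested. The log2 fold change of the share of astrocyte nuclei ranged from -1.30 to 0.21 with 1 library left out, being 0.21 without mutant replicate 1. The number of genes past the thresholds in the 5 lists, 0, became 1 without a filter on low counts, 0 to 1 with 1 library left out and 2 at any fold. The lone sample of a genotype is then assumed to vary like the others. The number of members highest in astrocytes, 5 of 7, was 6 by the share of nuclei after thinning, 5 in controls alone and 6 with neuron clusters merged, which was added after the data were seen. Over all genes, deviations of same-numbered libraries were little correlated (0.021 in bulk RNAseq and 0.0998 in astrocyte nuclei). Even so, replicate 2 of both genotypes shared high *Xist* in bulk RNAseq. With the replicate block the members called stayed at 0 in both. The log2 fold change was then -0.48 (FDR 0.115) for *Slc1a2* in bulk RNAseq and -0.54 for the share of astrocytes. Depth limits *Gjb6* and *Aldh1l1* most, with 31 and 50 UMIs in astrocytes of mutant replicate 1. Over all genes, calls in bulk RNAseq were 41 lower and 4 higher, but 112 and 201 without a filter, 56 and 69 by DESeq2, 24 and 2 with the block, 147 and 248 without mutant replicate 1, 79 and 75 without mutant replicate 2, and 0 without either control. In astrocyte nuclei they were 29 lower and 15 higher, but 81 and 44 without a filter, 10 and 8 by DESeq2, 54 and 38 with the block, 41 and 27 without the deepest nuclei, 107 and 65 without mutant replicate 1, 2 and 2 without mutant replicate 2, and 0 without either control.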
